A study of Mus musculus with 8 samples.

Results

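Potassium channel genes and the subunits of the ATP-sensitive potassium (KATP) channel were compared between islets of mice on high fat diet (HF) and on regular rodent chow (NC). All probe sets annotated to 1 gene whose symbol starts with Kcn were taken, together with those of Abcc8 and Abcc9, which gave 172 of the 45101 probe sets of the array and 86 of 18194 genes. The mice were male C57BL/6J, a strain that carries a deletion in Nnt, a mitochondrial transhydrogenase gene, so that both diet groups shared this mutation. HF mice received a diet with 45 kcal% fat from weaning at 4 weeks of age, and NC mice received chow over the same time, which was 12 weeks in the sample labels and longer in the study's methods. Islets were released with collagenase, separated on a Ficoll gradient and picked by hand. Each sample held the islets of a pair of mice, with 4 samples on each diet (NC replicates 1, 2, 4 and 5 and HF replicates 21, 22, 23 and 24) and 1 array per sample. The p-values therefore measure the spread between these pools.

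Potassium leaving the cell through open channels holds the membrane of a β cell at a negative voltage. KATP channels, built from a pore subunit and a sulfonylurea receptor, close when glucose metabolism raises ATP, and the depolarization that follows opens calcium channels and starts insulin secretion. Voltage-gated and calcium-activated potassium channels then help to bring the voltage back, while other subunits of the same families work in vascular smooth muscle, nerve and immune cells, which are also present in isolated islets.

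In HF islets the KATP subunits of the β cell, Kcnj11 and Abcc8, did not pass the test. Abcc9, a KATP subunit of smooth muscle, fell on 1 of its 3 retained probe sets. Kcna1, a voltage-gated channel of axons, had the largest fall of the retained channel probe sets, and Kcne4, Kcna5, Kcnk3 and Kcnk6 fell by 1.58-fold to 2.96-fold. Kcnab3, Kcnip2 and Kcnma1 rose, each on 1 of its retained probe sets. A probe set was retained where its third-highest GCRMA intensity over the 8 samples reached 10, which kept 69 of the 172 probe sets and 42 of the 86 genes, and 3 of the 69 (Kcna1 1455785_at, Kcnc4 1425090_s_at and Kcnk13 1447645_x_at) reached 10 in 3 or more samples of 1 diet only. A change was counted where the adjusted p of limma, over all 24481 retained probe sets of the array, was under 0.05 and the fold change was at least 1.5. Of the 69 probe sets 10 (14.5%) passed, beside 3.95% of all retained probe sets. They divided into 7 lower probe sets (10.1%, against 3.26% of all) and 3 higher ones (4.35%, against 0.686% of all). Counted by gene, 6 of 42 had a lower probe set (14.3%, against 4.91% of all genes) and 3 had a higher one (7.14%, against 1.12%). The higher count varied with single samples, since 1 probe set passed without NC replicate 1 and 1 passed without HF replicate 24. In the same fits the higher probe sets of the whole array went from 168 to 100 and 99. Kcnab3 1421790_a_at passed whichever sample was left out (adjusted p of limma up to 0.0120).

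The 69 probe sets moved in both directions. Their median log2 fold change was 0.0044, beside 0.019 for all retained probe sets, with 34 values under 0 and 35 over 0. The median size of the log2 fold change was 0.30, beside 0.11 for all. The 4 values of each diet did not overlap in 22 of the 69 probe sets (31.9%, against 15.2% of all), and these were 11 with lower and 11 with higher values in HF islets (15.9% each, against 8.11% and 7.09%). With no fold limit 12 of the 69 had an adjusted p under 0.05 (17.4%, against 6.53% of all).

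**Figure D1:**
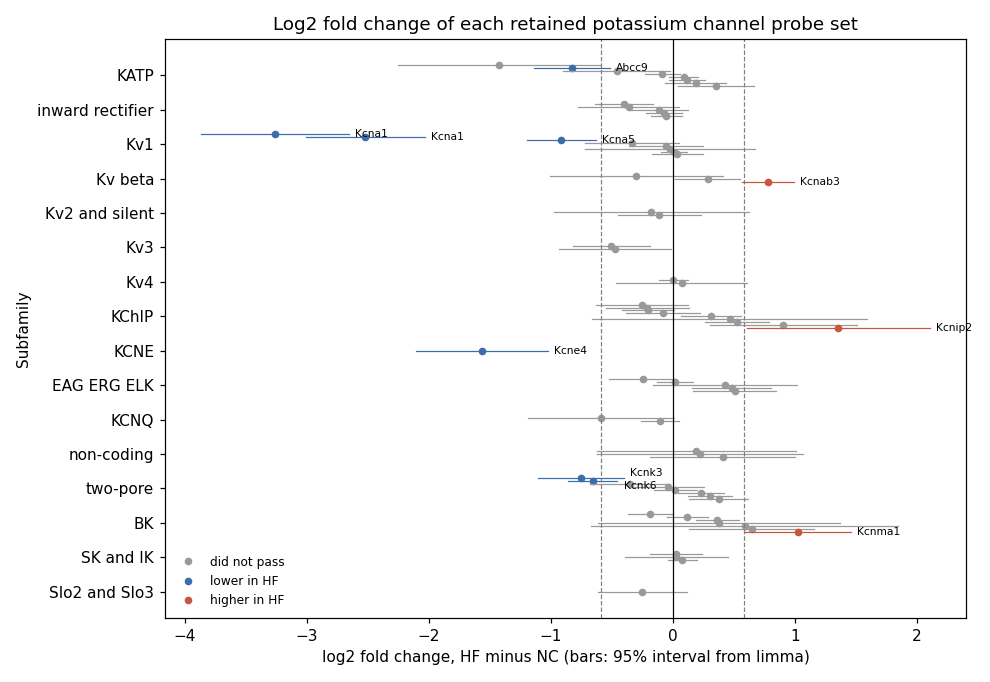
Log2 fold change (HF minus NC) of each of the 69 retained probe sets, 1 point per probe set with its 95% interval from limma, arranged by subfamily. Dashed lines mark a fold change of 1.5, blue points passed as lower and red points as higher in HF islets, and the lowest value is that of Kcna1 at -3.26.

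The β cell pair of KATP genes was close in the diets. Kcnj11 encodes the pore subunit of the β cell channel. Its probe set 1455417_at had intensities of 928, 971, 888 and 919.7 in the NC samples and 936, 984, 1092 and 1014 in the HF samples. The log2 fold change was 0.12 (95% interval -0.03 to 0.26, adjusted p = 0.340 from limma). Its other probe set (1450515_at) gave 133, 138, 137 and 112 in NC and 143, 141, 199 and 189 in HF. The values of the diets overlapped in the first probe set and not in the second, where HF replicates 23 and 24 stood above the others and the log2 fold change was 0.36 (95% interval 0.05 to 0.67, adjusted p = 0.175 from limma). Abcc8 encodes the sulfonylurea receptor that partners Kcnj11. The intensities of 1455765_a_at were 15626, 14930.2, 15321 and 16033 in NC and 17023, 15986, 15980.1 and 16949.7 in HF. The diets overlapped, with a log2 fold change of 0.09 (95% interval -0.03 to 0.21, adjusted p = 0.372 from limma), which was -0.0022 after scaling on the β cell markers. The second Abcc8 probe set (1457066_at) ranged from 7590.3 to 8427 in NC and from 7648 to 11022 in HF, with a log2 fold change of 0.19 (adjusted p = 0.377 from limma). The upper ends of these intervals were below the fold limit of 1.5, a log2 value of 0.585, for all but the Kcnj11 probe set 1450515_at.

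The second pair of KATP genes had lower values in HF islets. Kcnj8 encodes the pore subunit, and Abcc9 the sulfonylurea receptor, of KATP channels in vascular smooth muscle and pericytes. In the RefSeq gene table of GRCm38.p6 no protein-coding gene lies between Kcnj8 and Abcc9, and none lies between Kcnj11 and Abcc8. The Abcc9 probe set 1435752_s_at, whose suffix marks probes shared by several transcripts, had intensities of 602, 436, 454 and 473 in NC and 222, 280.0, 297 and 309 in HF. All HF samples were under all NC samples, and Abcc9 fell 1.77-fold on this probe set (log2 fold change -0.83, standard error 0.14, adjusted p = 0.0113 from limma). The other probe sets of Abcc9 did not pass. On 1420408_a_at the values were 85.3, 56.4, 56.8 and 60.2 in NC and 37.8, 38.5, 54.8 and 57.7 in HF, which overlapped (log2 fold change -0.46, adjusted p = 0.211 from limma). On 1435751_at they lay between 16.8 and 20.3 in all 8 samples.

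Kcnj8 had 1 probe set (1418142_at), with 36.7, 41.7, 28.1 and 53.9 in NC and 7.19, 22.6, 19.6 and 14.0 in HF. The diets did not overlap, HF replicate 21 was the lowest, and the log2 fold change was -1.43 (standard error 0.36, 95% interval -2.26 to -0.60). Its adjusted p of 0.0574 from limma missed the threshold. The exact permutation test gave the smallest p that 4 against 4 samples allow (two-sided, 0.0286, unadjusted). Any probe set without overlap gets this p, as 15.2% of all retained probe sets do, so it adds nothing to the lack of overlap. With values under 10 raised to 10 the adjusted p of Kcnj8 was 0.0337 and the log2 fold change -1.31, and without HF replicate 22 they were 0.0490 and -1.64 (limma). No other left-out sample gave a pass. Over all such fits the adjusted p of limma reached 0.135 and the log2 fold change ranged from -1.64 to -1.09.

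**Figure D2:**
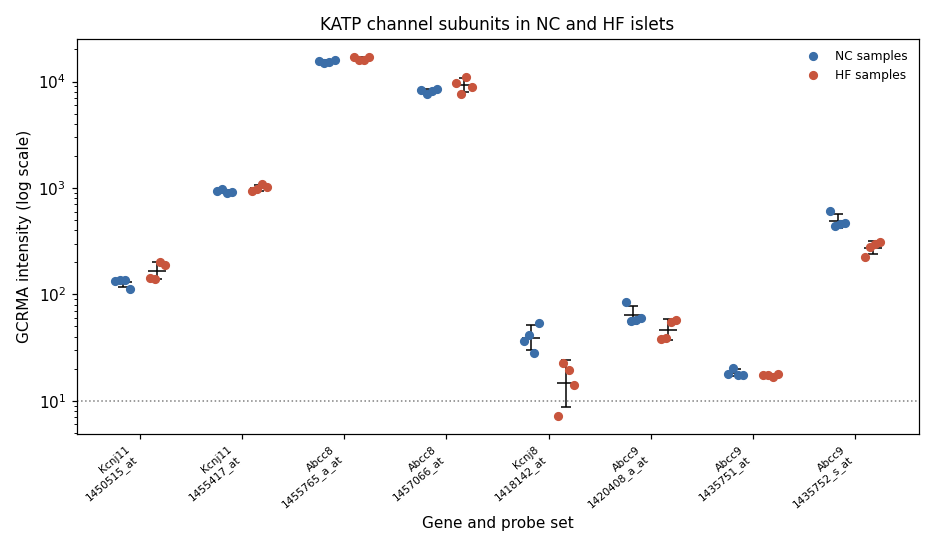
GCRMA intensity (log axis) of the 8 probe sets of the KATP subunits in the 4 NC and 4 HF samples, 1 point per sample, with the geometric mean and a bar of 1 SD of the log2 values. The dotted line marks an intensity of 10, and the Kcnj8 and Abcc9 1435752_s_at points of HF lie under those of NC while the Abcc8 points lie close together.

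The genes of voltage-gated Kv1 channels had 8 retained probe sets of 5 genes, and 3 of these probe sets, of 2 genes, were lower. Kcna1 encodes Kv1.1, a channel of axons next to the nodes of Ranvier. On 1455785_at its intensities were 59.4, 55.0, 109 and 91.8 in NC and 6.97, 11.4, 7.46 and 6.49 in HF. On 1437230_at they were 73.4, 75.9, 104 and 112 in NC and 10.6, 18.1, 16.9 and 18.3 in HF. Every HF value was far under every NC value in both probe sets. Kcna1 fell by 3.26 on the log2 scale on the first (standard error 0.26, adjusted p = 9.02e-04 from limma) and fell by 2.52 on the second (standard error 0.21, adjusted p = 9.76e-04 from limma). In 3 of the 4 HF samples the first probe set lay under 10, and with values under 10 raised to 10 its log2 fold change was -2.87. The third probe set of Kcna1 (1417416_at) was near the limit of 10 throughout, with 12.7 to 22.6 in NC and 11.9 to 12.7 in HF and an adjusted p of 0.307 from limma.

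Kcna5 encodes Kv1.5, a Kv1 channel known in vascular smooth muscle and in macrophages. Its intensities were 235, 183, 273 and 203 in NC and 126, 119, 116 and 108 in HF. The HF samples lay close together below all NC samples, and Kcna5 fell 1.89-fold (log2 fold change -0.92, standard error 0.12, adjusted p = 0.00507 from limma). Kcna1 and Kcna5 are neighbours in the RefSeq table, with no protein-coding gene between them. The other Kv1 probe sets, of Kcna2, Kcna4 and Kcna7, had log2 fold changes between -0.05 and 0.04, and no probe set of Kcna3 or Kcna6 was retained.

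Kcne4 encodes a small single-span subunit that joins Kv1 and KCNQ channels and lowers their current. Of 5 Kcne genes it was the one with a retained probe set (1418156_at). Its intensities were 324, 225, 198 and 258 in NC and 60.8, 125, 74.2 and 85.7 in HF. NC replicate 1 was the highest, HF replicate 22 was the highest on its diet, and the diets did not overlap. Kcne4 fell 2.96-fold (log2 fold change -1.57, standard error 0.23, adjusted p = 0.00776 from limma).

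Tandem-pore domain channels carry the leak current that sets the resting voltage, and 8 probe sets of 6 Kcnk genes were retained. Kcnk3, the acid-sensitive channel TASK-1, had 218, 219.8, 236 and 196 in NC and 129, 119.5, 175 and 103 in HF. HF replicate 23 was nearest to the NC samples, without overlap, and Kcnk3 fell 1.68-fold (log2 fold change -0.75, standard error 0.15, adjusted p = 0.0264 from limma). This call was lost, with an adjusted p of limma of up to 0.0720, without any one of NC replicates 1, 2 and 4 and HF replicates 21, 22 and 24. Kcnk6, the channel TWIK-2, had 35.5, 28.1, 31.5 and 27.6 in NC and 19.1, 19.3, 18.5 and 20.5 in HF. The HF values were tightly grouped under the NC values, and Kcnk6 fell 1.58-fold (log2 fold change -0.66, standard error 0.09, adjusted p = 0.00513 from limma).

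The remaining Kcnk genes did not pass. Kcnk16 encodes TALK-1, a leak channel of islet cells. It had 4342, 4178, 3946 and 4506 in NC and 4774, 4771, 5734 and 4674 in HF, which did not overlap, with a log2 fold change of 0.23 (95% interval 0.04 to 0.42, adjusted p = 0.149 from limma). Kcnk1, the channel TWIK-1, had no overlap between the diets on either probe set, with log2 fold changes of 0.31 (1455896_a_at, adjusted p = 0.0587 from limma) and 0.38 (1448690_at, adjusted p = 0.0785 from limma). Kcnk5 and Kcnk13 had log2 fold changes between -0.35 and 0.02.

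**Figure D3:**
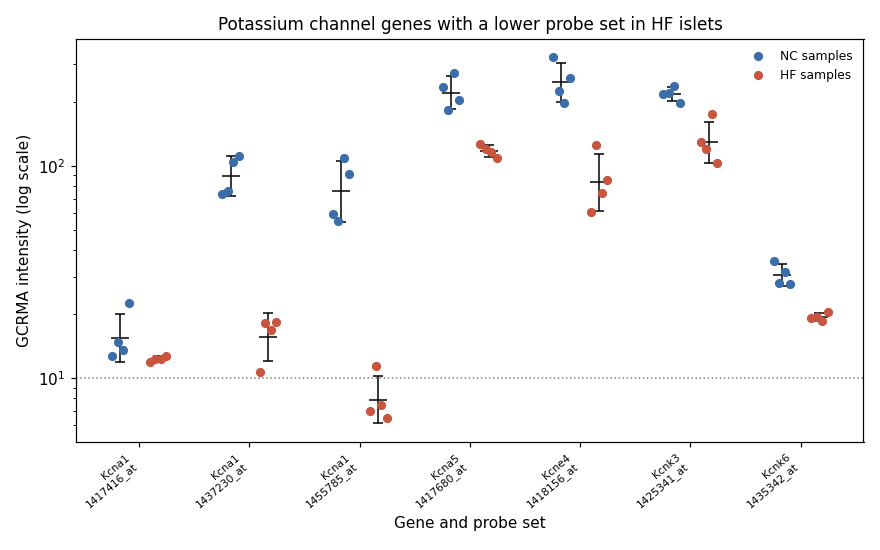
GCRMA intensity (log axis) of all retained probe sets of Kcna1, Kcna5, Kcne4, Kcnk3 and Kcnk6 in the 4 NC and 4 HF samples, 1 point per sample, with the geometric mean and a bar of 1 SD of the log2 values. The HF points of each probe set lie under its NC points, and those of Kcna1 1455785_at reach below the dotted line at an intensity of 10.

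The sequence before the annotated start is shown for Kcna5 and Kcne4, which fell, and for Kcnj8, which did not pass the test. Their windows in the RefSeq promoter table lay outside the annotated gene, and windows of other genes are not shown. Each line gives 250 bases of GRCm38.p6, 5′ to 3′ on the strand of the gene, and capitals mark a match to one of the motifs searched.
Kcnj8 (chr6:142571615-142571864, minus strand): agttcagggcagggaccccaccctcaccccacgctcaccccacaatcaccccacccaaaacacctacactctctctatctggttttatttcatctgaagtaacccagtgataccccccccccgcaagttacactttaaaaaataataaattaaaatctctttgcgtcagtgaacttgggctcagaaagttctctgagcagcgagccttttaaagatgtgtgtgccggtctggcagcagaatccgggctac
Kcna5 (chr6:126535556-126535805, minus strand): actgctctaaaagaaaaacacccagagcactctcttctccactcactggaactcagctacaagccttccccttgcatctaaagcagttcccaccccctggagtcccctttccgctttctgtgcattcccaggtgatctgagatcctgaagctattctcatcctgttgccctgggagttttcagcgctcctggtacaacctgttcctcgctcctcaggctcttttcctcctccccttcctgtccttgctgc
Kcne4 (chr1:78816661-78816910, plus strand): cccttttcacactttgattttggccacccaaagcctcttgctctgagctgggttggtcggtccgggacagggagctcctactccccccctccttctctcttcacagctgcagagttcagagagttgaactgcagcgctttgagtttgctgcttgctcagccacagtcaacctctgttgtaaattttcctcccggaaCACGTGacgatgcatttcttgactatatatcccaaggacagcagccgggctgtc
The motifs, searched on both strands, were the GC box GGGCGG (held by 32.7% of 32851 windows of this length in the table), the CCAAT box (33.8%), the TATA box TATAAA (12.4%), the E-box CACGTG (6.02%) and the CArG box of smooth muscle genes (1.47%). The Kcne4 window held 1 CACGTG, and the Kcnj8 and Kcna5 windows held none of the motifs. The GC content was 49.2% for Kcnj8 and 53.2% for both others, with a median of 52.4% over all windows.

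Markers of cells around and between the endocrine cells included many that fell. With 1 probe set per gene, 4.50% of all genes fell and 0.461% rose, and no marker gene rose. In whole islets, fewer cells of a type and less RNA per cell cannot be told apart. Of 8 measured smooth muscle and pericyte markers 6 fell (median log2 fold change -1.08), and their summed intensity was 11725 to 13066 in NC and 7728 to 9097 in HF. Cnn1 and Cspg4, which define such cells, lay under 10 in all samples. Abcc9, Kcnj8 and Kcna5 are known from such cells. Of 9 measured Schwann and glial cell markers, the cells that wrap the axons where Kcna1 works, 5 fell (median -0.80), and their sum was 2772 to 2935 in NC and 1731 to 1822 in HF. Foxd3 was under 10 in all samples and Gfap was not retained. Of 9 neuron markers 1 fell (Prph, a filament of peripheral neurons, median of the list -0.53), with sums of 3327 to 4685 in NC and 2050 to 3507 in HF. The diets overlapped on Prph, with 88.6 in HF replicate 23 and 75.2 in NC replicate 5 (adjusted p = 0.0476 from limma). Nefl, Stmn2 and Uchl1 had log2 fold changes of -2.63, -2.27 and -1.10 and did not pass (adjusted p = 0.0633, 0.0595 and 0.0607 from limma). The rest of the list lay between -0.53 and -0.08. No probe set of Elavl3 or Chat was retained. Of 9 macrophage markers 5 fell (median -0.77, sums of 5249 to 6080 in NC and 3212 to 4093 in HF), and Itgam lay under 10 in all samples. The part of these cells in the lower values of Abcc9, Kcnj8, Kcna1, Kcna5, Kcne4, Kcnk3 and Kcnk6 was not tested.

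Of the other marker lists, those of fibroblasts, endothelial cells and lymphocytes held genes that fell, and those of endocrine, acinar and duct cells held none. All 10 fibroblast markers fell (median -2.43, sums of 13167 to 18895 in NC and 2612 to 4664 in HF), as did 2 of 10 endothelial markers (median -0.55, sums of 17697 to 20613 and 13490.0 to 15261), 3 of 5 B and plasma cell markers (median -1.87) and 1 of 2 T and NK cell markers (Ms4a4b). The T cell markers Cd3e, Cd3g, Cd4 and Cd8a lay under 10 in all samples and were not measured. None of 13 β cell markers passed in either direction (median 0.11, sums of 246871 to 252442 in NC and 258355 to 275554 in HF). None of 4 alpha cell markers (median -0.39), 4 delta and PP cell markers (median -0.34), 7 acinar markers (median -0.02, sums of 269942 to 348377 and 296444 to 341504) and 5 duct markers (median -0.04) passed. Markers of acinar cells were thus measured beside those of islet cells in every sample of both diets. Within the duct list Krt19 had a log2 fold change of -1.77 (adjusted p = 0.0502 from limma), with all HF values under 10. Muc1 had -0.70, and Krt7, Sox9 and Cftr lay between -0.04 and 0.01. Within the alpha list Irx1 and Irx2 had -0.81 and -0.78 (adjusted p = 0.145 and 0.0542 from limma), beside 0.0080 for Gcg and 0.0011 for Ttr.

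**Figure D4:**
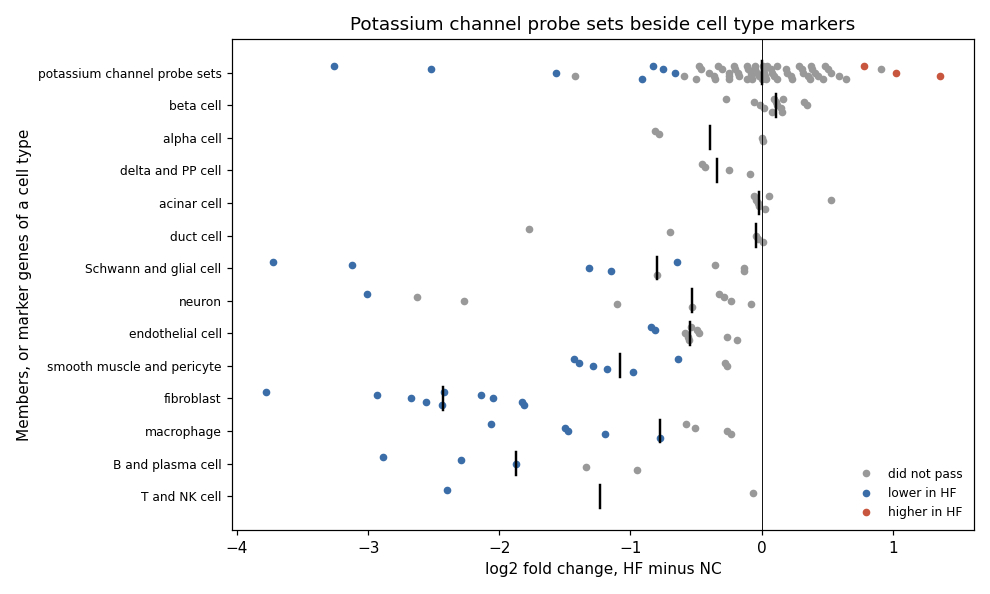
Log2 fold change (HF minus NC) of the 69 potassium channel probe sets and of the measured marker genes of 13 cell types, 1 point each, with a black line at each median. Blue points passed as lower and red points as higher in HF islets, and the fibroblast markers all lie to the left of -1.8 while the β cell markers lie around 0.

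Kcnab3, Kcnip2 and Kcnma1, each with several retained probe sets, rose on 1 of them. Kcnab3 encodes a cytoplasmic β subunit that binds Kv1 channels. On 1421790_a_at it had 16.3, 14.1, 15.3 and 14.5 in NC and 22.2, 26.1, 26.5 and 29.2 in HF. The diets were well apart, and Kcnab3 rose 1.72-fold on this probe set (log2 fold change 0.78, standard error 0.09, adjusted p = 0.00312 from limma). On 1423950_at it had 192, 183, 178 and 158 in NC and 191, 268, 202 and 211 in HF, which overlapped, with a log2 fold change of 0.29 (95% interval 0.02 to 0.55, adjusted p = 0.198 from limma). Kcnab2, a related subunit, had a log2 fold change of -0.30 (adjusted p = 0.644 from limma), and Kcnab1 was not retained.

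Kcnip2 and Kcnip1 encode KChIPs, calcium-binding proteins that attach to Kv4 channels. The Kcnip2 probe set 1425870_a_at had 22.3, 40.9, 44.3 and 35.2 in NC and 49.6, 105, 133 and 88.2 in HF. HF replicate 21 was only just above the highest NC sample, and Kcnip2 rose 2.56-fold (log2 fold change 1.36, standard error 0.33, adjusted p = 0.0478 from limma). This call was lost without any one sample other than HF replicate 21, with adjusted p-values of limma up to 0.116. The second probe set (1436275_at) had 91.8, 138, 97.7 and 138 in NC and 136, 245, 315 and 202 in HF, where HF replicate 21 overlapped the NC samples and the others were higher (log2 fold change 0.91, adjusted p = 0.0855 from limma). Without HF replicate 21 its log2 fold change was 1.13 (adjusted p = 0.0355 from limma).

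Kcnip1 on 1416785_at had 906, 1142, 991 and 1129 in NC and 1329, 1469, 1793 and 1427 in HF. The diets did not overlap and the adjusted p of limma was 0.0326, but the 1.44-fold difference was under the fold limit. Its probe set 1448459_at did not overlap either (log2 fold change 0.31, adjusted p = 0.141 from limma), and 1433156_at overlapped widely (log2 fold change 0.47, adjusted p = 0.651 from limma). Kcnip3 and Kcnip4 had log2 fold changes between -0.25 and -0.08 and did not pass. The Kv4 pore genes Kcnd1 and Kcnd3 stayed near the limit of 10, with log2 fold changes of 0.07 and 0.0044.

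Kcnma1 encodes the pore of the large-conductance calcium-activated (BK) channel. On 1424848_at it had 114, 146, 119 and 108 in NC and 265, 166, 284 and 295 in HF. HF replicate 22 was nearest to the NC samples, without overlap, and Kcnma1 rose 2.04-fold (log2 fold change 1.03, standard error 0.19, adjusted p = 0.0184 from limma). Without NC replicate 1, HF replicate 21 or HF replicate 24 the adjusted p of limma was 0.0562, 0.0582 or 0.0584. On 1428948_at the values were 1017, 971, 1122 and 1037 in NC and 1292, 1212, 1395 and 1449 in HF. These did not overlap, and the adjusted p of limma was 0.0281 with a 1.29-fold difference, under the fold limit. The probe sets 1425987_a_at, 1457018_at and 1440728_at had log2 fold changes of 0.65, 0.59 and 0.38 with overlapping diets and adjusted p-values of 0.138, 0.601 and 0.679 from limma. All 5 probe sets of Kcnma1 thus had a higher mean in HF islets, by sizes from 1.29-fold to 2.04-fold. Kcnmb2, a β subunit of the BK channel, had log2 fold changes of 0.12 and -0.18 on its probe sets, and Kcnmb1, the β subunit of smooth muscle, was not retained.

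**Figure D5:**
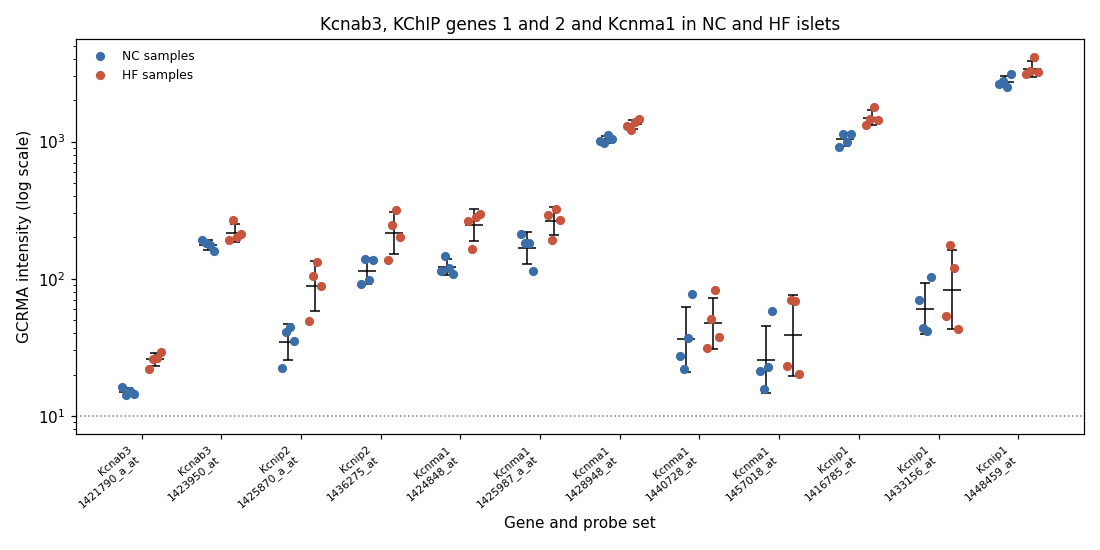
GCRMA intensity (log axis) of all retained probe sets of Kcnab3, Kcnip2, Kcnma1 and Kcnip1 in the 4 NC and 4 HF samples, 1 point per sample, with the geometric mean and a bar of 1 SD of the log2 values. Kcnab3 1421790_a_at, Kcnip2 1425870_a_at and Kcnma1 1424848_at passed as higher in HF islets, and the widest spread within a diet is that of Kcnma1 1457018_at.

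The other subfamilies had no probe set that passed. Among the inward rectifiers outside the KATP channel, 5 probe sets of 3 of 13 genes were retained, with log2 fold changes between -0.40 and -0.05. Kcnj3, a pore subunit of channels opened by G proteins, ranged from 19.2 to 26.0 in NC and from 15.5 to 18.4 in HF on 1455374_at. The HF samples were all below the NC samples, with a log2 fold change of -0.40 (95% interval -0.63 to -0.16, adjusted p = 0.0604 from limma). Its other probe sets gave -0.11 and -0.07. Of the Kv3 genes, Kcnc4 had 15.6, 10.7, 13.9 and 11.7 in NC and 7.62, 9.16, 10.4 and 9.28 in HF, without overlap and near the limit of 10 (log2 fold change -0.50, adjusted p = 0.0729 from limma). Kcnc2 had a log2 fold change of -0.48 (adjusted p = 0.218 from limma).

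Kcnh5, a voltage-gated channel of the EAG type, had 31.0, 23.1, 25.5 and 27.2 in NC and 34.3, 42.5, 30.4 and 46.1 in HF, where HF replicate 23 overlapped the NC samples. Its log2 fold change was 0.51 (adjusted p = 0.0879 from limma), and 0.61 without that sample (adjusted p = 0.0465). The related Kcnh1 had log2 fold changes of 0.43 and 0.48 on its probe sets, and Kcnh2 and Kcnh8 had 0.02 and -0.25. Kcnq3, of the family that carries the M-current of neurons, had 44.5, 61.4, 27.3 and 25.8 in NC and 23.7 to 26.2 in HF. Its log2 fold change was -0.59 (adjusted p = 0.240 from limma), with NC replicates 1 and 2 above all other samples. Kcnq1 had -0.10, and the non-coding Kcnq1ot1, which runs antisense to it, had 0.19, 0.22 and 0.41 on 3 probe sets.

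Kcnu1, a channel best known from sperm, had 251, 229, 249 and 229 in NC and 257, 164, 163 and 237 in HF, which overlapped (log2 fold change -0.25, adjusted p = 0.421 from limma). The small-conductance channel gene Kcnn1 had log2 fold changes of 0.02 and 0.08, both under 0 after scaling on the β cell markers, and Kcnn2 had 0.03. Kcnf1, a silent subunit that modifies other Kv channels, had -0.18 and -0.11, which turned to 0.14 without HF replicate 22 and to 0.048 without NC replicate 4, and it was the only retained gene of 9 in its group. The 44 genes with no retained probe set included 10 inward rectifiers and 8 silent subunits of Kv channels, and 103 of the 172 probe sets (59.9%) were not retained.

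Genes that work with these channels were counted from a list of 33 partners of potassium channels and carriers of potassium. Of 23 measured genes 1 fell, none rose and 22 did not pass, with a median log2 fold change of 0.0070, and this share that fell was near the 4.50% of all genes. The gene was Fxyd1, a regulator of the sodium pump, with 36.0, 53.6, 45.0 and 46.1 in NC and 25.8, 26.2, 27.7 and 19.8 in HF (log2 fold change -0.86, adjusted p = 0.0125 from limma). Dpp6 and Dpp10, which join Kv4 channels with the KChIPs, had log2 fold changes of -0.53 and -0.49 and did not pass (adjusted p = 0.284 and 0.0675 from limma). Other partners were higher in HF without overlap but under the fold limit. Cntnap2, Slc12a7 and Atp1b1 had log2 fold changes of 0.31, 0.33 and 0.37 (adjusted p = 0.0354, 0.0162 and 0.110 from limma). In a list of genes from glucose uptake to depolarization, among them the glucose transporter Slc2a2 and the calcium channels Cacna1c and Cacna1d, none of 14 measured genes passed in either direction (median 0.06).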

How the data were processed

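RNA of pancreatic islets was measured on mouse expression arrays in 4 NC and 4 HF samples, grouped by their labels. Per the labels, the authors calculated expression values from the array images in ArrayAssist Lite 3.4 with GCRMA, which subtracts background, normalizes across arrays and summarises the probes of a probe set. The deposited values are intensities on the linear scale and were taken to log2 here. The number of arrays limits the precision, and the sample medians lay between 13.0 and 13.8. Platform annotation named 1 gene for 34958 probe sets, several for 932 and none for 9211.

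HF minus NC was fitted in limma 3.58.1 (lmFit and eBayes, R 4.3.3), tested on simulated data first, with Benjamini-Hochberg adjustment over the 24481 probe sets whose third-highest intensity was at least 10. This limit stands in for the present flags of the study, and limma for its SAM, which was an alternative. Single probe sets were also compared by exact two-sided permutation over 70 arrangements. For marker lists, the retained probe set with the highest mean stood for its gene. The members, the lists and the rule for named genes were chosen with earlier results of these data known. The rule takes Kcnj11, Abcc8, Kcnj8, Abcc9, Kcna1 and Kcnab3, every gene with a probe set that passed or that differed 1.5-fold without overlap, and the smallest p of each subfamily. Kcnk1, Kcnk16 and the other members and list genes named were chosen after their values were seen. Alternatives were other filters, scalings, variance models, tests and fold limits, and each sample left out. Promoter windows came from RefSeq, which held 65 of the 86 genes.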

Additional observations from a re-analysis of the deposited data

Results flagged for a closer look

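Among the 38 retained probe sets of the 20 named genes, each diet was searched for a sample that stood apart from the other 3. The measure was the ratio of its gap to the range of the group, on log2 values (Dixon's ratio, at its 95% limit for 4 samples). Intensities below are on the linear scale. Of 76 groups 6 passed, and chance gives about 1 in 20. NC replicate 2 was high on the Kcnj3 probe sets 1421468_at (22.7 beside 19.7 to 19.8, ratio 0.966) and 1444025_at (18.0 beside 13.4 to 13.6, ratio 0.943). NC replicate 1 was high on Abcc9 1420408_a_at (85.3 beside 56.4 to 60.2, ratio 0.846). NC replicate 5 was low on Kcnj11 1450515_at (112 beside 133 to 138, ratio 0.830). HF replicate 23 was high on Kcnip1 1448459_at (4143 beside 3114 to 3251, ratio 0.849). HF replicate 21 was low on Kcna1 1437230_at (10.6 beside 16.9 to 18.3, ratio 0.852).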

How the results depend on the processing

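No paired analysis was possible because the NC and HF samples share no replicate number. The 7 lower probe sets numbered 6 to 7, and the 6 lower genes 5 to 6, when any 1 sample was left out, and they numbered 3 and 2 with a fold limit of 2. The 3 higher probe sets and genes each numbered 1 to 3 when any 1 sample was left out (1 without NC replicate 1 or HF replicate 24). Both were 1 with an adjusted Student's t-test, while the higher probe sets were 5 with its unadjusted form and 5 with no fold limit. The study's methods name that t-test for comparing 2 groups in general, and SAM for the arrays. The median log2 fold change of the members was 0.15 with a third-highest intensity of at least 50 and -0.089 after scaling on the β cell markers, which gave -0.07 for all probe sets and 1047 lower and 95 higher ones in place of 799 and 168. It ranged from -0.059 (without HF replicate 24) to 0.017 when a sample was left out. Among single probe sets of the named genes 668 recomputed values kept their direction and side of the threshold, 23 lost and 10 gained a call, and 7 values, of 5 probe sets, turned sign, none of them of a probe set that passed. After β cell scaling the log2 fold changes of Abcc8 1455765_a_at, Kcnn1 1449536_at and Kcnn1 1419617_at were -0.0022, -0.015 and -0.070. When any 1 sample was left out, Kcnn1 1419617_at ranged from -0.035 (without NC replicate 4, and -0.018 without HF replicate 22) to 0.093, Kcnf1 1441300_at from -0.19 to 0.048 (without NC replicate 4) and Kcnf1 1454768_at from -0.43 to 0.14 (without HF replicate 22). Besides the losses given beside Kcnip2, Kcnk3 and Kcnma1, Kcnk3 lost its call when all 45101 probe sets were tested (adjusted p = 0.0620 from limma), and Kcnip2 lost its call in that setting, after β cell scaling and with sample weights (0.113, 0.0679 and 0.0594 from limma). All 3 lost it with the adjusted Student's t-test and kept it with SAM as run here. Kcnj8, which did not pass in the main fit, passed in 5 of 10 other settings besides the left-out samples. Among these were an intensity trend and robust prior (0.0467 from limma), sample weights (0.0407 from limma) and SAM. The cause of these shifts was not tested. Probe sets near 10 limit the depth of any fall.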

Other observations

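The retained members varied more within a diet than the array as a whole, with a median SD of log2 values of 0.21, beside 0.14 for all retained probe sets. The widest spread was that of Kcnma1 1457018_at (0.90), Kcnip1 1433156_at (0.80), Kcnma1 1440728_at (0.71) and Kcnq1ot1 1442029_at (0.60), and the same samples, NC replicate 5 and HF replicates 22 and 23, held the 3 highest values of all 4. On Kcnma1 1457018_at these were 57.8, 70.6 and 69.0, beside 15.8 to 23.1 in the other samples. On Kcnq1ot1 1442029_at they were 442, 296 and 406, beside 156 to 205. These samples held the 3 highest values of 5 of the 10 members with the widest spread, of 6 of the 69 members (8.70%) and of 757 of all 24481 retained probe sets (3.09%). The other probe sets of Kcnma1 and Kcnip1 did not share this order. In the fit with sample weights, NC replicate 5 and HF replicates 22 and 23 had the lowest weights (0.858, 0.864 and 0.559). The weights of the other samples lay between 0.983 and 1.28. Whether the low weights and the shared high values have a common source was not tested.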
